A study of Mus musculus with 27 samples.

Results

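The time course after a dose of 2 Gy was followed in mouse thyroid gland organoids (mTGOs), which are bodies of epithelial cells grown from dissociated gland tissue in a gel. The libraries were those named for 2 Gy at day 7 (3 libraries) and at day 11 (3 libraries), which makes 6 of the 27 libraries of the series. The organoids came from thyroid glands of C57BL/6 mice aged 8 to 12 weeks. They were grown for 5 days in Matrigel with EGF, FGF2, B27 and the kinase inhibitor Y27632, were exposed once to photons, and were collected at day 7 or day 11, so that the earlier time point lay 2 days and the later one 6 days after the exposure. All 6 libraries therefore shared the dose of 2 Gy and the medium, and differed in the day of collection. The other libraries held non-irradiated organoids at days 5, 7 and 11 and organoids exposed to 4 or 7 Gy at days 7 and 11, with 3 libraries in each group. Each culture was kept under its own identifier in the data (mTG11, mTG12 and mTG14), and the same 3 cultures gave both days. The labels number the mice from 1 to 3 and the series text speaks of 4 mice, and neither could be matched to the culture identifiers. Values per library are given below in the order mTG11, mTG12, mTG14.

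Ionising radiation breaks DNA in every cell it crosses. Cells answer through the kinases ATM and ATR and the transcription factor p53, which induces an inhibitor of cyclin-dependent kinases (Cdkn1a), a ubiquitin ligase that limits p53 itself (Mdm2) and genes of cell death. Cells that survive a modest dose can repair the breaks and return to the cell cycle. In organoid culture the same days also cover growth, in which a stem-like cell divides, and the later slowing of division as the daughters differentiate.

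RNA was read with Smart3SEQ, which sequences the 3′ ends of transcripts, and each value below is a deposited estimated count scaled to a library total of 1e+06 (CPM). Totals of the 6 libraries ran from 2528866 to 4591357 counts, and 3 counts, taken as the smallest detectable amount, corresponded to 0.653 to 1.19 CPM (counting error only). Along the first principal component of all 27 libraries (56.8% of the variance) the day 7 libraries after 2 Gy lay at -12.6, -30.7 and -11.7 and the day 11 libraries at 42.9, 28.7 and 39.7. The culture mTG12 was thus the lowest at both days and stood furthest from the others at day 7. Counts of genes that lead a paragraph are therefore also given without this culture. The tissue label was checked against follicular markers. Thyroglobulin (Tg), the precursor of thyroid hormone, was at 0.395, 2.4 and 0.365 CPM at day 7 and 0.224, 3.9 and 1.06 CPM at day 11, Tshr and Slc26a7 were at 0 in all 6 libraries, and Pax8 did not exceed 0.395 CPM. The transcription factors Nkx2-1 and Foxe1 and the peroxide-forming Duox genes were present, and their values are given below.

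Between day 7 and day 11 after 2 Gy the organoids showed a fall in transcripts of dividing cells, of sterol synthesis and of the cornified layer of a stratified epithelium, and a rise in transcripts of the interferon response and of class I antigen presentation. Of 17354 genes tested, 3726 (21.5%) changed at an adjusted p under 0.05. A total of 1873 (10.8%) were higher at day 11 and 1853 (10.7%) lower. In 2970 genes (17.1%) every day 11 value lay above every day 7 value, and in 3216 (18.5%) every day 11 value lay below. The median log2 difference over all genes was 0.036. These shares are the background against which the counts of the gene lists below are read, and the median of each list stands beside that of all genes. The lists and their members were chosen with earlier results of these data known. Their counts beside these shares therefore describe the lists and test nothing. Without mTG12, 3447 genes were called. In bulk RNA, fewer cells of a kind and less of a transcript in each cell cannot be told apart.

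The 15 largest falls, among genes with at least 10 CPM on average and no overlap between the days, were led by late cornified envelope genes, which encode proteins of the horny outer layer of skin. Lce3e stood at 64.7, 57.2 and 62.5 CPM at day 7 and at 0, 0 and 0.0533 CPM at day 11. Its 3 values at day 11 were at or under the detection limit, so that the fall was at least 239-fold against 3 counts over the group. Lce3b behaved alike, with 41.1, 49.8 and 40.8 CPM at day 7 and 0, 0 and 0.0533 CPM at day 11, a fall of at least 177-fold on the same floor. Lce3f, Lce3a and Lce3c fell by 7.08, 5.73 and 5.52 on the log2 scale. The small proline-rich protein gene Sprr1b, a cross-linked envelope component, went from 85, 219.5 and 54 CPM to 0.671, 2.51 and 0.266 CPM (log2 fold change -6.64, SE 0.21, adjusted p = 4.62e-09). It was highest in mTG12 at both days. The desmosomal cadherin gene Dsg1b went from 26.6, 38.3 and 20.3 CPM to 0, 0.51 and 0.533 CPM, and the stress keratin gene Krt16 from 798, 1276 and 570.1 CPM to 27.8, 72.6 and 40.8 CPM (log2 fold change -4.22, SE 0.18, adjusted p = 1.75e-08). The remaining 7 were Calm4, a calmodulin-like gene, the acyl thioesterase gene Them5, repetin (Rptn), loricrin (Lor), the lipoxygenase gene Alox12b, the protease gene Asprv1 and Teddm3, with log2 fold changes between -6.80 and -4.11.

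Of these 15 genes, 9 lie on 1 stretch of chromosome 3 (GRCm39, chr3:91987578-94254659, 2.267 Mb), which holds the epidermal differentiation complex, a cluster of envelope genes. They are Lor (91987578 to 91990449), Sprr1b (92344116 to 92346096), Lce3a (92832594 to 92833537), Lce3b (92840286 to 92841404), Lce3c (92851793 to 92853040), Lce3e (92874368 to 92875588), Lce3f (92899533 to 92900733), Rptn (93301006 to 93306749) and Them5 (94249400 to 94254659). Within this stretch 46 genes were tested, of which 32 were lower at day 11 and 1, Gm35439, was higher. The ends of the stretch were set by the falling genes themselves, so these counts describe it and test nothing. The Lce3 genes are close relatives, and reads shared among them could have been divided between them in the counting.

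The 15 largest rises were of another kind. The maturation factor gene Duoxa2 and its partner oxidase gene Duox2 held the first and the third place and are described with the thyroid genes below. Olfm4, which encodes a secreted olfactomedin known from epithelial stem cells and from neutrophils, went from 2.77, 0 and 1.83 CPM to 66.9, 24.5 and 38.1 CPM (log2 fold change 4.99, SE 0.34, adjusted p = 7.32e-07). The iron-binding antimicrobial protein gene Ltf rose from 1365, 644 and 1187 CPM to 8898, 5544 and 8509 CPM (log2 fold change 2.91, SE 0.11, adjusted p = 1.18e-08). All 3 cultures showed the rise, with mTG12 the lowest at both days. The membrane mucin gene Muc21 went from 21.4, 10.0 and 21.9 CPM to 216, 116 and 173 CPM. The neighbouring pantetheinase genes Vnn1 and Vnn3 (chromosome 10) rose by 3.06 and 3.60 on the log2 scale. Wfdc12, a protease inhibitor gene, Clca3b, Tff2, a trefoil factor of mucus, the integrin gene Itgam, the interferon-stimulated genes Ddx60, Ifi27l2a and Ifit3, and the long noncoding RNA gene Gm38781 completed the set. By CPM, without correction for transcript length, the most abundant genes were Rn18s-rs5, mt-Rnr2, mt-Rnr1, Gsto1 and LOC118568312, and of these only Gsto1, a glutathione transferase gene, passed the test, with 7985, 6845 and 8921 CPM at day 7 and 19980, 13740 and 16660 CPM at day 11 (log2 fold change 1.10, SE 0.098).

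**Figure D1:**
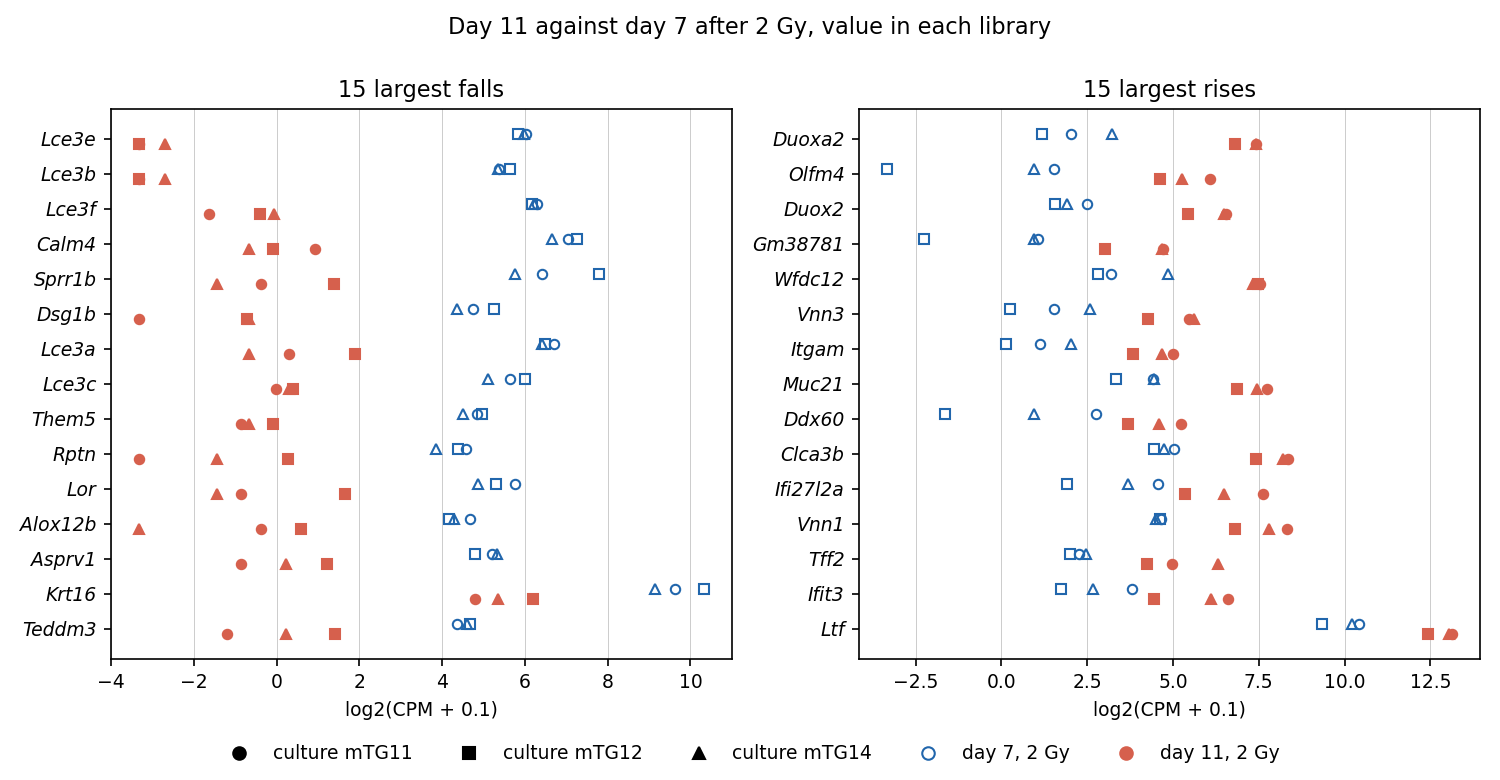
Values of the 15 genes with the largest falls (left) and the 15 with the largest rises (right) as log2(CPM + 0.1), 1 symbol for each of the 6 libraries (shape, culture; open blue, day 7; filled red, day 11). In every gene the day 11 symbols lie on 1 side of the day 7 symbols, because only genes without overlap were chosen. Where values are equal, as for Lce3e at 0 in mTG11 and mTG12, the symbols cover each other.

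The genes of division fell together. Of 30 genes of mitosis and the G2/M step, all 30 were tested and all 30 were lower at day 11, with a median log2 fold change of -1.81 against 0.036 over all genes, and in each of them the 3 day 11 values lay below the 3 day 7 values. The count was again 30 without mTG12. Their summed level ran from 1107 to 1536 CPM at day 7 and from 289.1 to 437.3 CPM at day 11. The mitotic kinase gene Plk1 stood at 34, 40.1 and 25.9 CPM at day 7 and 7.16, 5.01 and 1.6 CPM at day 11 (log2 fold change -2.83, SE 0.25, adjusted p = 6.55e-06). Cyclin A2 (Ccna2), which drives DNA replication and the entry into mitosis, went from 42.3, 47.7 and 33.6 CPM to 8.5, 6.96 and 4.39 CPM. Birc5, or survivin, a part of the complex that corrects chromosome attachment, went from 67.1, 91.1 and 62.8 CPM to 15.1, 14.8 and 10.1 CPM. For the topoisomerase gene Top2a the values were 178, 205 and 138 CPM and 56.2, 59.9 and 44.5 CPM (log2 fold change -1.67, SE 0.11), and for the proliferation marker Mki67 111, 135 and 79.3 CPM and 22.1, 47.2 and 22 CPM (log2 fold change -1.84, SE 0.16). Mki67 was highest in mTG12 at both days. The smallest fall of the list was that of Racgap1, at -1.23.

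The replication genes fell as well. Of 30 genes of DNA replication and the G1/S step, all tested, 26 were lower and 0 higher (26 and 0 without mTG12), and the median was -1.22. The ribonucleotide reductase gene Rrm2, which supplies deoxynucleotides, went from 32, 56.1 and 43.5 CPM to 7.16, 12.9 and 7.72 CPM (log2 fold change -2.21, SE 0.17, adjusted p = 1.79e-06). Mcm5, a subunit of the helicase that opens the double strand, went from 37.6, 54.6 and 29.2 CPM to 10.3, 9.47 and 7.72 CPM, thymidine kinase (Tk1) from 21.9, 29.1 and 19.7 CPM to 5.59, 6.41 and 4.53 CPM, and the sliding clamp gene Pcna from 54, 61.1 and 50.2 CPM to 28.4, 29.2 and 30.1 CPM (log2 fold change -0.89). The other 5 subunits of the Mcm2 to Mcm7 ring were also lower, with log2 fold changes between -1.39 and -1.16. The 4 members that did not pass the test were E2f1, Ccne1, Slbp and Rfc4 (adjusted p between 0.0596 and 0.382).

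Many promoters of mitotic genes hold a short element, the cell cycle homology region (TTTGAA, or TTCAAA on the other strand), through which these genes are known to be held down in resting cells. It was looked for on both strands in RefSeq promoters (GRCm38.p6, 250 bases before to 50 after the start). A total of 25 of the 30 mitotic genes had an entry, with 27 promoters, and 21 of those (77.8%) held the letters, against 17.9% of all 32851 promoters and 10.0% of 30 promoters of the replication list. The CCAAT box (CCAAT or ATTGG) stood in 81.5% of the mitotic, 60.0% of the replication and 37.4% of all promoters. It was not limited to genes of division, with 73.9% of 23 promoters of the cholesterol and fatty acid synthesis list described below. In the interferon-stimulated list it stood in 36% of 25 promoters. The windows of 3 falling genes are shown 5′ to 3′ on the strand of the gene with the element in capitals, for Ccnb2 (cyclin B2, chr9:70421704-70421733, minus strand), Cdc20 (an activator of the anaphase-promoting complex, chr4:118437344-118437373, minus strand) and Ube2c (its ubiquitin-conjugating enzyme, chr2:164769888-164769917, plus strand).
Ccnb2: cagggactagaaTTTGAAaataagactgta
Cdc20: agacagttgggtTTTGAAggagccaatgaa
Ube2c: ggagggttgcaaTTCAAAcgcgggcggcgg
The log2 fold changes of these 3 genes were -2.43, -2.03 and -1.94. The letters begin 167, 18 and 29 bases before the annotated start. A match of 6 letters is a description of the sequence and says nothing of binding.

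Most targets of p53 did not pass the test between day 7 and day 11. Of 24 targets, all tested, 6 were higher, 1 lower and 17 did not pass the test (5 and 1 without mTG12), and the median log2 fold change was 0.21. Their summed level was 2441 to 2858 CPM at day 7 and 2515 to 2800 CPM at day 11, ranges that overlap. The secreted stress factor Gdf15 went from 4.75, 1.09 and 3.65 CPM to 16.1, 7.8 and 14.9 CPM (log2 fold change 2.12, SE 0.29, adjusted p = 2.17e-04). Pmaip1, or Noxa, a trigger of cell death, rose from 66.8, 76.5 and 81.4 CPM to 147, 139.6 and 163 CPM (log2 fold change 1.02, SE 0.11, adjusted p = 3.32e-05), and the kinase gene Plk2 from 115, 127 and 114 CPM to 174, 205 and 224 CPM. Rrm2b, the p53-induced subunit of ribonucleotide reductase, was higher (log2 fold change 1.18) while Rrm2, the subunit of dividing cells, was lower. Cdkn1a stood at 370.1, 430.2 and 428 CPM at day 7 and 598, 515 and 628 CPM at day 11 (log2 fold change 0.52, SE 0.10, adjusted p = 0.00315). Without mTG11 its adjusted p was 0.0684. Sesn2 also passed (adjusted p = 0.0405) and did not without mTG11 (0.249) or without mTG12 (0.109). Perp, a desmosomal p53 target, was the member that fell, with a log2 fold change of -0.50 and an adjusted p of 0.0753 when the culture block was left out. For Mdm2 the values were 71.6, 63.4 and 64.2 CPM and 70.4, 71.3 and 80.8 CPM (adjusted p = 0.307), and for Bax, Zmat3 and Phlda3 the adjusted p lay between 0.715 and 0.91.

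Among genes that block or drive the cyclin-dependent kinases at the G1 step, 3 of 10 were higher (Cdkn1a, Cdkn1b and Cdkn1c) and 0 lower. Without mTG12 the counts were 2 and 1, and the adjusted p of Cdkn1c was then 0.173. Among the cyclin D genes Ccnd1 stood at 826, 913 and 870.2 CPM and 816, 741 and 789 CPM and Ccnd2 at 2210, 2226 and 1924 CPM and 2499, 2267 and 2192 CPM, and neither passed the test (adjusted p = 0.378 and 0.251). The senescence-associated inhibitor gene Cdkn2a was at 30.1, 62.5 and 36.1 CPM and 34.5, 45.7 and 31.2 CPM (adjusted p = 0.485). Of 24 genes of DNA damage signalling and repair, 8 were lower, 1 was higher and the median was -0.51. The falling members included the helicase gene Blm, from 7.91, 8.28 and 11.7 CPM to 2.46, 2.51 and 2.4 CPM, and the histone gene H2ax, whose product is phosphorylated at breaks, from 33.8, 38.9 and 38.2 CPM to 19.4, 17.9 and 15.5 CPM. The calls of Bard1, Exo1 and Rad54l were lost without mTG12 (adjusted p between 0.0532 and 0.0664). The kinase genes at the head of the pathway, Atm and Atr, did not pass (adjusted p = 0.0648 and 0.397), and the kinase gene Prkdc, which acts in end joining, was the member that rose (log2 fold change 1.14).

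Most genes of the basal and suprabasal lists fell. Of 16 basal epithelial genes, 11 were lower and 0 higher (12 and 0 without mTG12), with a median log2 fold change of -0.88. Krt14, a filament of basal cells, went from 3471, 5782 and 3628 CPM to 764, 1488 and 1100 CPM (log2 fold change -1.93, SE 0.11, adjusted p = 1.86e-07), and its partner Krt5 from 4377, 5668 and 4369 CPM to 1996, 2495 and 2069 CPM (log2 fold change -1.11). The list also holds keratins of stress and wounding and is not made of basal markers alone. The stress keratin gene Krt16, given above, had its largest fall (-4.22). The wound keratin gene Krt6b went from 1343, 1676 and 1270 CPM to 158, 229 and 188 CPM. The laminin chain genes Lama3 and Lamb3, of the sheet under the basal layer, were lower too, with log2 fold changes of -0.94 and -1.17. Trp63, the transcription factor of basal cells, stood at 94.9, 98.5 and 123 CPM and 83.9, 78.4 and 84.2 CPM and did not pass (adjusted p = 0.0625), and neither did the keratin genes Krt15 and Krt17 (adjusted p = 0.794 and 0.11). In each of the 11 falling members mTG12 was the highest culture at day 7.

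Of 24 suprabasal and cornified genes, 18 were lower and 0 higher (19 and 0 without mTG12), with a median of -1.20 and a span from -6.64 to 0.67. Krtdap, a secreted keratinocyte protein gene, went from 230.5, 242 and 178 CPM to 15.2, 21.7 and 10.9 CPM, Sprr3 from 389.5, 584 and 413 CPM to 24.6, 94.2 and 28.5 CPM and cornifelin (Cnfn) from 179, 226 and 187 CPM to 36.9, 52.1 and 43.7 CPM. Transglutaminases, which cross-link the envelope, fell as well, with log2 fold changes of -2.18 for Tgm3 and -1.63 for Tgm1. Krt13, a keratin of stratified epithelia that do not cornify, stood at 3888, 4154 and 4716 CPM and 2236, 2504 and 2580 CPM (log2 fold change -0.78, SE 0.093), and the keratin gene Krt1 and the plakin genes Evpl and Ppl did not pass (adjusted p = 0.718, 0.365 and 0.0607). Among 16 tested genes of kallikreins and squamous proteases, 10 were lower and 3 higher (11 and 3 without mTG12). All 6 kallikreins tested, serine proteases that release cells from the surface of a stratified epithelium, were lower, with Klk14 going from 232, 136 and 305 CPM to 15.4, 13.1 and 21.3 CPM, Klk13 from 172, 102 and 177 CPM to 15.1, 6.96 and 14.9 CPM and Klk10 from 202, 201 and 173 CPM to 12.1, 28.7 and 24 CPM. Their inhibitor Spink5 went from 1325, 1644 and 1186 CPM to 236, 303 and 169.6 CPM (log2 fold change -2.55, SE 0.11, adjusted p = 2.61e-08). The 3 that rose were Prss22, Prss27 and the lysosomal protease gene Ctsl, and the call of Ctsl was lost without mTG11 (adjusted p = 0.0956).

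Genes of simple epithelia and tight junctions, the seals between epithelial cells, moved in both directions. Of 22 tested, 11 were higher, 4 lower and 7 did not pass (10 and 4 without mTG12), and the median was 0.37. The keratin gene Krt23 rose from 77.9, 28.3 and 58.1 CPM to 408, 136 and 295 CPM (log2 fold change 2.36, SE 0.11, adjusted p = 4.20e-08), and Krt7 from 628, 414 and 663 CPM to 1371, 795 and 1049 CPM. The claudin gene Cldn3 went from 101, 49.4 and 107 CPM to 254, 127 and 208 CPM and Cldn4 from 306, 263 and 317 CPM to 544, 379.7 and 504 CPM. Occludin (Ocln) stood at 17.4, 10.7 and 16.8 CPM and 33.3, 17.8 and 28 CPM (log2 fold change 0.83, SE 0.16, adjusted p = 0.00285). The junction scaffold genes Tjp1 and Tjp3 were higher. The 4 that fell were Cldn8, Krt19, Cldn1 and Krt8, so the simple keratins did not move as 1 block. Krt19 and Krt8 lost their calls when the culture block was left out (adjusted p = 0.0506 and 0.0984). The adhesion genes Cdh1 and Epcam did not pass (adjusted p = 0.851 and 0.216).

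Among 24 secretory and mucosal defence genes, 11 rose, 6 fell and 7 did not pass (11 and 5 without mTG12), with a median of 0.43. When the culture block was left out, 9 rose and 1 fell, so most of the falls depended on the block. Beside Ltf, the mucin gene Muc4 went from 36.8, 12.8 and 25.2 CPM to 231, 83 and 174 CPM (log2 fold change 2.73, SE 0.12, adjusted p = 3.08e-08) and Muc20 from 15.8, 3.7 and 8.4 CPM to 66.5, 21.2 and 45.3 CPM. Pigr, the receptor that carries immunoglobulin across the epithelium, rose from 86.6, 48.1 and 39.3 CPM to 151, 122 and 118 CPM, and ceruloplasmin (Cp) from 118, 76 and 119 CPM to 369, 188 and 320.3 CPM. Lipocalin-2 (Lcn2), which starves bacteria of iron, differed widely between cultures, with 48.6, 28.1 and 274 CPM at day 7 and 393, 162 and 776 CPM at day 11. It rose in each culture, yet the days overlapped, and its adjusted p was 1.31e-05 with the culture block and 0.0981 without it. The falling members included Scgb3a1 (log2 fold change -1.76), Bpifa1 (adjusted p = 1.62e-04) and Scgb1a1, which was at or under 3.92 CPM throughout. Bpifb1 and Muc5b did not pass (adjusted p = 0.632 and 0.975). Scgb3a1 and Bpifa1 lost their calls without the block (adjusted p = 0.133 and 0.343). The antibacterial lectin gene Reg3g did not pass, at 2160, 1351 and 799 CPM and 2244, 1204 and 949.9 CPM.

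Of 20 genes of thyroid follicular function, 11 passed the filter on low counts, and 5 of these were higher and 2 lower (5 and 2 without mTG12). The peroxide generators of the thyroid and of mucosal surfaces split into pairs. The oxidase gene Duox2 went from 5.54, 2.83 and 3.65 CPM to 93.8, 43.6 and 89.2 CPM (log2 fold change 4.21, SE 0.18, adjusted p = 2.54e-08), and Duoxa2, which carries the oxidase to the cell surface, from 3.95, 2.18 and 9.16 CPM to 171, 112 and 173 CPM (log2 fold change 5.00, SE 0.22, adjusted p = 2.54e-08). The sister oxidase gene Duox1 fell from 15.8, 31.4 and 19 CPM to 6.49, 9.05 and 6.92 CPM (log2 fold change -1.51, SE 0.19, adjusted p = 1.36e-04), and its maturation factor Duoxa1 from 47.1, 29.8 and 43.1 CPM to 13.9, 16.2 and 13.8 CPM (log2 fold change -1.40). In none of the 4 genes did the days overlap. They are neighbours on chromosome 2 (GRCm39), where Duox2 (122109728 to 122128930, minus strand) is followed after 449 bases by Duoxa2 (122129380 to 122133366, plus strand), which shares 695 bases with Duoxa1 (122132672 to 122144217, minus strand), and Duox1 (122146153 to 122178453, plus strand) begins 1935 bases further on. Whether the counting used strand is not given in the sources used here, so reads in the 695 shared bases could have gone to either gene. Nkx2-1 went from 10.7, 6.32 and 8.03 CPM to 21.5, 10.3 and 13.8 CPM (log2 fold change 0.86, adjusted p = 0.00872), and its adjusted p was 0.0762 without mTG11. Foxe1 stood at 22.5, 26.1 and 28.9 CPM and 29.8, 29.8 and 35.4 CPM (adjusted p = 0.132), and Tg did not pass (adjusted p = 0.436). Slc26a4, the anion transporter pendrin, rose from 1.58, 0.218 and 0.365 CPM to 4.47, 5.01 and 4.13 CPM (log2 fold change 2.84, SE 0.58), from levels near the detection limit.

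Interferon-stimulated genes rose. Of 32 members, all tested, 26 were higher and 0 lower (26 and 0 without mTG12), with a median log2 fold change of 1.84, and in 16 every day 11 value lay above every day 7 value. The culture mTG12 was the lowest at both days in each of the 26, and where the days overlapped its day 11 value lay within the day 7 range. The summed level was 181.7 CPM in the lowest and 629.2 CPM in the highest library at day 7, and 742.2 to 2362 CPM at day 11. Ifit1, whose product binds foreign RNA, went from 46.9, 7.47 and 37.6 CPM to 310.3, 60.9 and 218 CPM (log2 fold change 2.73, SE 0.14, adjusted p = 6.95e-08). Isg15, a ubiquitin-like modifier, went from 47.2, 8.6 and 40.5 CPM to 242, 46.9 and 145 CPM, and Irf7, a transcription factor that amplifies the response, from 44.7, 12.2 and 27.8 CPM to 173, 79.1 and 138 CPM. The sensor genes Ifih1 and Ddx58 rose by 1.16 and 0.72 on the log2 scale. Ifih1 lost its call when the block was left out (adjusted p = 0.058). The chemokine gene Cxcl10 did not pass (log2 fold change -1.09, adjusted p = 0.0926), nor did Mx1 (0.0682).

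The interferon-stimulated response element (GAAANNGAAA, or TTTCNNTTTC) was looked for in the same RefSeq promoters. A total of 23 of the 32 genes had an entry, with 25 promoters, and 14 of these (56.0%) held it, against 3.44% of all promoters. The windows around it are shown for the 3 members with the largest rises among those that hold it, with the element in capitals, for Ddx60 (chr8:61928057-61928086), Ifit3 (chr19:34583397-34583426) and its near copy Ifit3b (chr19:34607793-34607822), all on the plus strand.
Ddx60: ggagcagaagaGAAACCGAAActatccttc
Ifit3: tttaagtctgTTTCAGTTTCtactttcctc
Ifit3b: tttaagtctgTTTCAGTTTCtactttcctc
The windows of Ifit3 and Ifit3b are identical, and reads shared between the copies could have been divided in the counting. Ddx60 stood at 6.72, 0.218 and 1.83 CPM at day 7 and 37.8, 12.8 and 24.2 CPM at day 11, and Ifit3 at 13.8, 3.27 and 6.21 CPM and 96.5, 21.9 and 68.6 CPM. For Ifit3b the values were 10.3, 2.18 and 10.9 CPM and 87.6, 23 and 49.1 CPM. The log2 fold changes were 3.28, 3.00 and 2.81, and mTG12 was the lowest culture of each gene at both days.

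Class I antigen presentation rose with them, with 11 of 15 genes higher and 0 lower (11 and 0 without mTG12) and a median of 1.22. The light chain B2m went from 179, 106 and 156 CPM to 726, 264 and 459 CPM (log2 fold change 1.66, SE 0.13, adjusted p = 2.18e-06), the heavy chains H2-K1 from 224, 166 and 184 CPM to 699, 241 and 462 CPM and H2-D1 from 240.2, 144 and 192 CPM to 598, 270.1 and 430.2 CPM, and Psmb8, a subunit of the immunoproteasome, from 13.1, 3.92 and 8.03 CPM to 60.0, 16.2 and 38.4 CPM. The peptide transporter genes Tap1 and Tap2 were higher by 0.73 and 1.27. The H2 genes are close relatives, and their separate counts are uncertain. Chemokines and inflammatory cytokines were mixed, with 6 of 20 tested higher and 3 lower (8 and 2 without mTG12). The alarmin gene Il33 fell from 284, 204 and 316 CPM to 94.5, 123 and 58.9 CPM (log2 fold change -1.53, SE 0.24, adjusted p = 5.68e-04) while Il1a rose from 24.1, 25.4 and 37.6 CPM to 52.6, 51 and 62.6 CPM, and its receptor antagonist Il1rn from 48.2, 41.4 and 52.4 CPM to 75.6, 58.5 and 74.6 CPM. Il6 and Il1b did not exceed 0.436 CPM.

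Sterol and fatty acid synthesis fell almost without exception. Of 28 genes, 27 were lower and 0 higher (27 and 0 without mTG12), the median was -1.52, and only Sc5d did not pass (adjusted p = 0.0932), although in all 28 the day 11 values lay below those of day 7. Hmgcs1, the synthase at the head of the mevalonate pathway, went from 239, 274 and 213 CPM to 56.5, 81.2 and 54.7 CPM (log2 fold change -1.90, SE 0.12, adjusted p = 4.21e-07). Fdps, which makes farnesyl diphosphate, had the largest fall, from 151, 184 and 146 CPM to 29.6, 39.4 and 28.9 CPM (log2 fold change -2.28, SE 0.12). Srebf2, the transcription factor of the pathway, went from 121, 127 and 94.6 CPM to 74.1, 73.3 and 63.4 CPM. The letters of the sterol regulatory element (TCACNCCA, or TGGNGTGA) stood in 3 of the 23 promoters found for this list (13.0%, against 4.36% of all).

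In glycolysis and the hypoxia response, 17 of 26 genes were lower and 2 higher (19 and 2 without mTG12), with a median of -0.69. Among the enzymes that fell, Pkm, pyruvate kinase, went from 1327, 1730 and 1233 CPM to 518, 526 and 420 CPM (log2 fold change -1.52, SE 0.099, adjusted p = 6.15e-07) and Ldha, lactate dehydrogenase, from 1314, 1514 and 1315 CPM to 489, 581 and 446 CPM. The hexokinase gene Hk2 did not pass (adjusted p = 0.704). The lactate exporter gene Slc16a3 went from 69.2, 98.7 and 74.1 CPM to 11.2, 27.6 and 12.2 CPM. The 2 genes that rose encode secreted hypoxia-induced factors, namely Vegfa, from 68.8, 38.1 and 74.9 CPM to 132, 147 and 132 CPM, and adrenomedullin (Adm), from 11.9, 6.75 and 11.3 CPM to 32.9, 36.5 and 24 CPM. Of 28 nuclear genes of the respiratory chain, 11 were lower and 1 higher (8 and 1 without mTG12, 5 and 1 without mTG14), with a median of -0.21 and no fall larger than that of Cox5b (-0.79). Of the 13 mitochondrially encoded genes, 2 were lower (ND1 and ND3) and 1 higher (COX1), and COX1 lost its call when any 1 culture was left out (adjusted p between 0.0886 and 0.135). Among 40 cytosolic ribosomal protein genes, 8 were higher and 2 lower, all by less than 0.41 on the log2 scale, and without mTG11 the counts were 0 and 1.

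Genes under the stress factor ATF4, which responds to amino acid shortage and misfolded protein, rose in part. Of 22 members, 13 were higher and 1 lower (19 and 1 without mTG12), with a median of 0.58. The glutathione-degrading enzyme gene Chac1 went from 11.1, 9.37 and 8.4 CPM to 41.6, 27 and 44.7 CPM (log2 fold change 1.95, SE 0.18, adjusted p = 1.28e-05), Atf5 from 53.4, 59.5 and 53 CPM to 201, 107 and 212 CPM and Nupr1 from 361, 264 and 401 CPM to 1228, 640.4 and 1062 CPM. Asparagine synthetase (Asns) stood at 65.6, 63.4 and 62.4 CPM and 148, 85 and 144 CPM. In these 4 genes the rise was smallest in mTG12. Atf4 itself was higher (log2 fold change 0.52, adjusted p = 0.00287, 0.0508 without mTG11). Ddit4, an inhibitor of mTOR signalling, was the member that fell (log2 fold change -0.63). Glutathione and NRF2 genes were divided, with 7 of 24 higher and 6 lower (7 and 7 without mTG12). The transferase genes themselves parted, since Gsta3 rose from 64.8, 49.7 and 55.3 CPM to 239, 216 and 204 CPM and Gsta1 fell from 29.9, 42.6 and 32.5 CPM to 6.56, 18.3 and 6.79 CPM.

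Immediate early genes, the first transcripts made after a stimulus, were higher in 11 of 20 and lower in 0 (10 and 0 without mTG12), with a median of 0.59. Atf3 went from 12.7, 10.7 and 12.8 CPM to 42.3, 35.9 and 63.4 CPM (log2 fold change 1.96, SE 0.17, adjusted p = 4.99e-06), Fosb from 21.4, 15.9 and 14.6 CPM to 42.3, 38.7 and 50.3 CPM and Jun from 236, 175 and 248 CPM to 498, 378 and 490.3 CPM. Fos, Junb and Myc did not pass (adjusted p between 0.255 and 0.76). In the list of TGF-β targets and the mesenchymal switch, 5 of 23 were higher and 4 lower (5 and 6 without mTG12), and the members parted. Tgfbi, a matrix protein gene, fell from 151, 245 and 178 CPM to 30.2, 65.9 and 31.4 CPM (log2 fold change -2.19, SE 0.14, adjusted p = 5.70e-07), and the hyaluronan receptor gene Cd44 from 414, 562 and 410.1 CPM to 175, 219.8 and 181 CPM. The ligand gene Tgfb2 rose from 4.88, 5.18 and 15.1 CPM to 43.6, 17 and 32.3 CPM and the matrix-associated factor gene Ccn1 from 58.9, 74.9 and 70.5 CPM to 150.1, 128 and 173 CPM. Vim did not pass (adjusted p = 0.0698), and Cdh2, Snai1, Zeb1 and Zeb2 had means of at most 1.30 CPM and did not pass either.

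Among 12 tested genes of Notch signalling, 4 were lower and 1 higher (3 and 1 without mTG12). The ligand gene Jag1 fell from 182, 268 and 169 CPM to 106, 106 and 98.6 CPM (log2 fold change -0.94, SE 0.12, adjusted p = 1.57e-04), and the target genes Hes1 and Nrarp fell by 0.59 and 0.72 on the log2 scale. The receptor gene Notch1 did not pass (adjusted p = 0.77). Of 25 transcription factors of epithelial fate, 4 were higher and 5 lower (4 and 7 without mTG12). Elf3, a factor of simple and secretory epithelia, rose from 128, 72.5 and 133 CPM to 292, 188 and 238 CPM (log2 fold change 1.16, SE 0.13, adjusted p = 3.98e-05), and Elf5 fell from 18.2, 22.4 and 29.6 CPM to 5.37, 10.9 and 6.39 CPM. Sox2, Sox9, Klf4, Klf5 and Foxa1 did not pass (adjusted p between 0.0655 and 0.946).

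Markers of other cell types were low, with some exceptions. Of 22 genes of multiciliated cells, 15 passed the filter on low counts, 9 were higher and 0 lower, and without mTG11, mTG12 and mTG14 the higher members numbered 6, 4 and 11 (5 without the block). DESeq2 gave an adjusted p for 7 of them and called 1 higher. The summed level of the list was 12.42 to 15.68 CPM at day 7 and 26.79 to 61.84 CPM at day 11. Foxj1, the master factor of motile cilia, went from 1.98, 1.31 and 0.73 CPM to 13, 9.19 and 5.72 CPM (log2 fold change 2.81, SE 0.34, adjusted p = 9.23e-05). The fibroblast list (18 tested) had 3 higher members and 1 lower (3 and 3 without mTG12). Decorin (Dcn) stood at 3.16, 6.32 and 15 CPM and 8.95, 34.5 and 53.8 CPM and Sparc at 224, 343 and 329.7 CPM and 129.8, 151 and 147 CPM, while the collagen gene Col1a1 did not pass (adjusted p = 0.389). The sum of the fibroblast list was 314.8 to 509.8 CPM at day 7 and 221.1 to 373.6 CPM at day 11. Of the immune list 3 passed the filter and 2 rose, Itgam, from 2.08, 0.991 and 4.02 CPM to 31.7, 14.2 and 25.4 CPM, and Cd68, from 21.8, 13.5 and 27.4 CPM to 55.3, 37.6 and 41 CPM, whereas the leukocyte gene Ptprc did not exceed 0.799 CPM and Cd3e was at 0 in all 6 libraries. Skeletal muscle genes were lower in 6 of 7 (3 without the block), with a sum of 62.98 to 168.9 CPM at day 7 and 23.16 to 66.55 CPM at day 11. Tubb3, a neuronal tubulin gene, was at 1.98, 9.37 and 3.1 CPM at day 7 and at 0 in the 3 libraries of day 11. Calcb of the C cell list fell from 34.8, 40.3 and 39.4 CPM to 3.36, 1.95 and 1.86 CPM while Calca, which encodes calcitonin, did not exceed 0.533 CPM. The adipocyte gene Fabp4 and the endothelial gene Egfl7 also fell, Egfl7 not so without mTG11 (adjusted p = 0.0506), and Pecam1, Cdh5, Adipoq and Plin1 stayed under 0.8 CPM. The part of these cells in the results above was not tested.

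**Figure D2:**
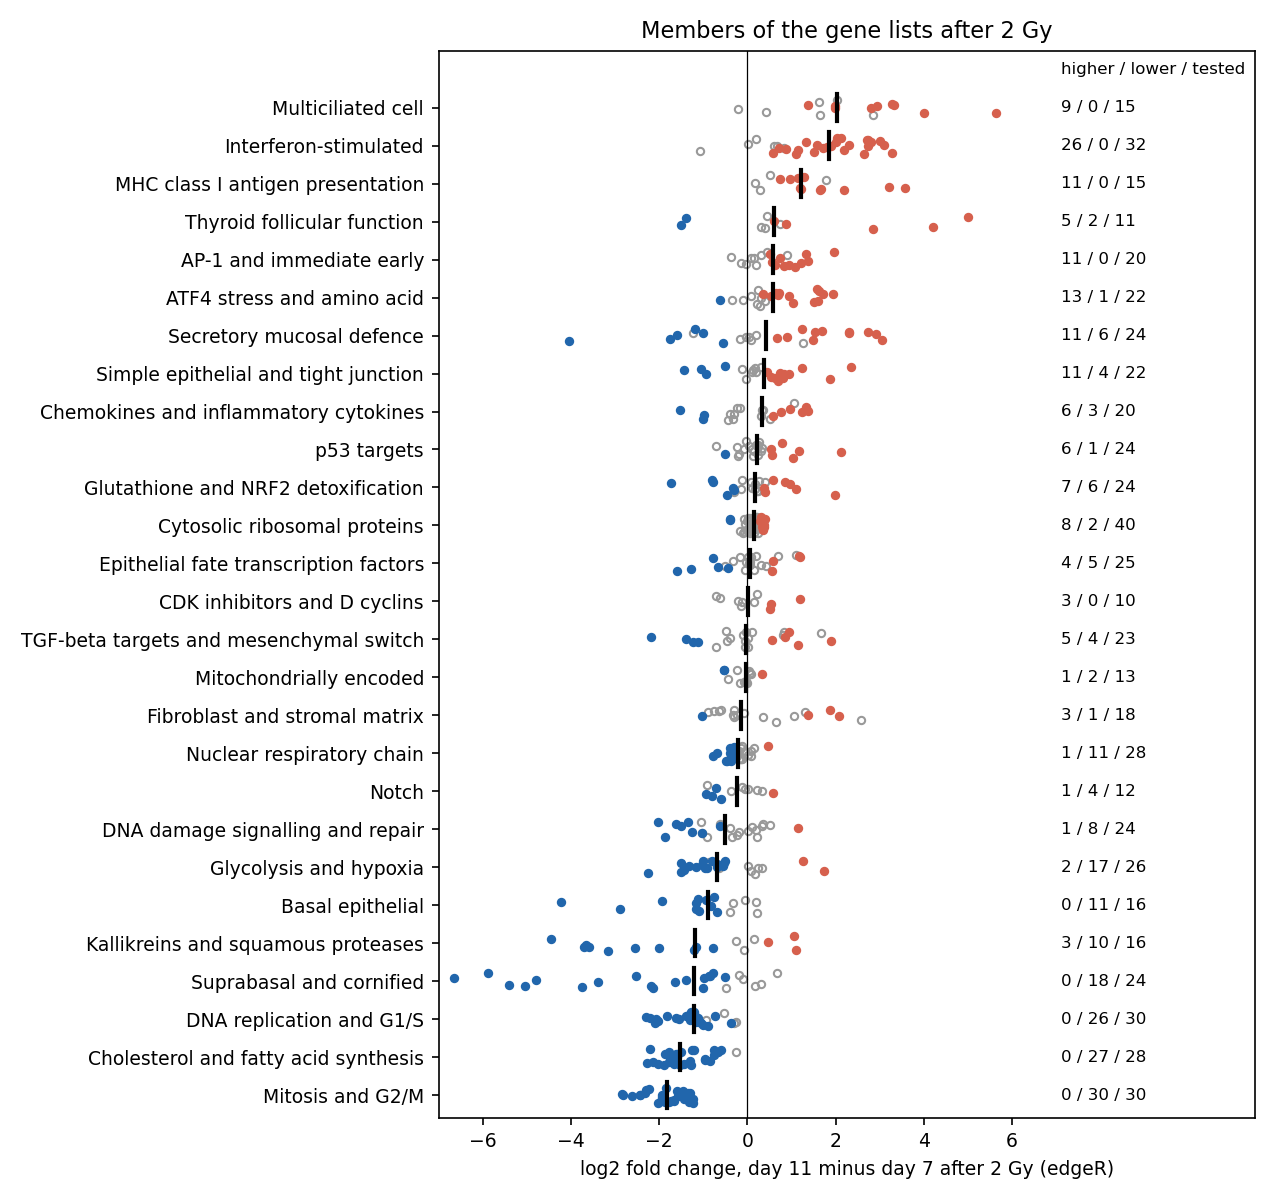
Log2 fold change of each tested member of the gene lists with at least 10 tested members, between day 7 and day 11 after 2 Gy (1 point per gene; red and blue, higher and lower at an adjusted p under 0.05 by edgeR; grey open, not passed; black bar, median of the list). The numbers on the right count members higher, lower and tested, from 9, 0 and 15 for multiciliated genes at the top to 0, 30 and 30 for mitosis at the bottom.

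The day of irradiation gave a start for the course. The 3 non-irradiated libraries of day 5 come from the same cultures, and were compared with the 2 Gy libraries of either day, a contrast in which time and dose cannot be told apart. At day 7 after 2 Gy 1932 of 18338 genes (10.5%) were higher than at day 5 and 1405 (7.66%) lower, with an all-gene median of 0.022. Without mTG11 the counts were 983 and 606, without mTG14 907 and 456. Scaled by library totals alone, the split was 1448 higher and 2152 lower and the median -0.086, so list medians are read against the median of all genes. At day 11, 3916 genes (21.4%) were higher and 3586 (19.6%) lower than at day 5, with a median of 0.073 (-0.046 by totals alone). Of the 30 mitotic genes 28 were already lower at day 7 (median -0.86) and all 30 at day 11 (median -2.71). The mean CPM of Top2a (SD, n = 3) was 372 ± 30.7 at day 5, then 174 ± 34.0 and 53.5 ± 8.04 on the later days. Of the cholesterol genes 8 of 28 were lower and 2 higher at day 7 (median -0.19) and 27 lower at day 11 (median -1.68). Of the 26 genes of glycolysis and hypoxia, 14 were higher and 0 lower at day 7, and 9 higher and 10 lower at day 11. Interferon-stimulated genes were higher than at day 5 in 31 of 32 at both days, with medians of 3.40 and 5.57, and the mean CPM of Ifit1 went from 1.69 ± 0.222 to 30.7 ± 20.6 and then 196 ± 126. At day 5 some members lay under the detection limit of 0.855 to 1.14 CPM, such as Ifit3 (mean 0.095 CPM) and Ddx60 (0.115 CPM). The size of fold changes that start from such levels, and so of these medians, is uncertain. Among p53 targets 10 of 24 were higher and 2 lower at day 7 (median 0.42), and 13 higher and 2 lower at day 11 (median 0.76). Mdm2 had a mean CPM of 38.5 ± 6.67, 66.4 ± 4.51 and 74.2 ± 5.73 over the 3 days, and was higher than at day 5 in both tests (adjusted p = 3.89e-04 and 1.48e-05). The tests against day 5 share the day 5 libraries with each other and the 2 Gy libraries with the course.

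**Figure D3:**
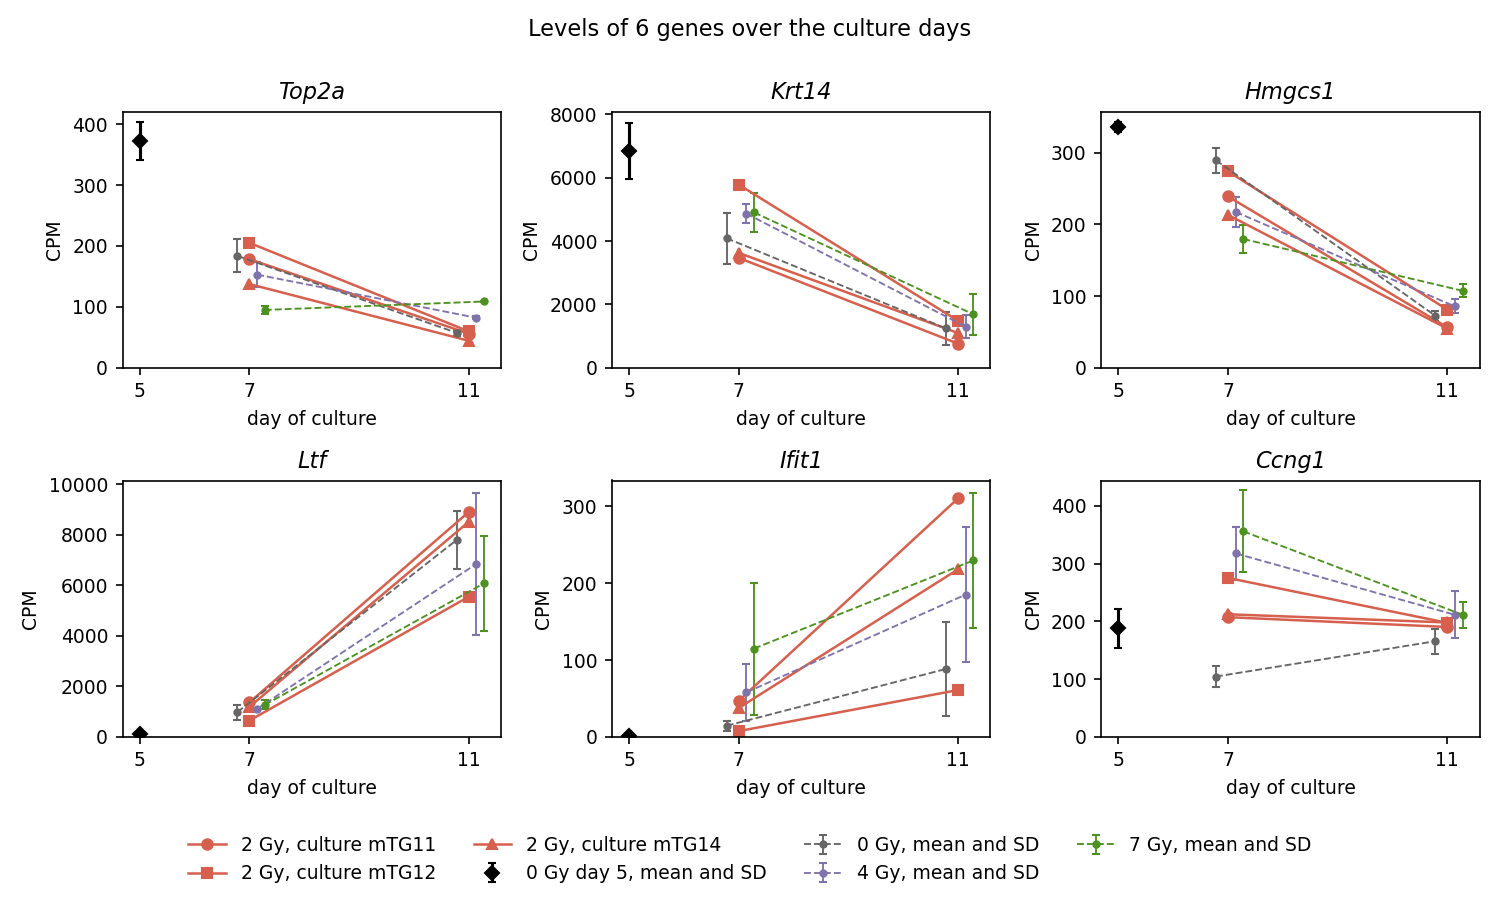
CPM of 6 genes over the days of culture, with each 2 Gy culture as a red line (shape, culture), the day 5 start as a black diamond and the other doses as mean and SD of 3 libraries (grey 0 Gy, purple 4 Gy, green 7 Gy). Top2a, Krt14 and Hmgcs1 fall and Ltf and Ifit1 rise in every 2 Gy culture, while Ccng1 after 2 Gy stays between 190 and 275 CPM.

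To see where the course after 2 Gy departed from the others, the change from day 7 to day 11 after 2 Gy was tested against the same change at each other dose, over all 24 libraries of these days (21928 genes, all with the 2 Gy libraries in common). Against the non-irradiated course 0 genes (0%) moved higher and 2 (0.00912%) lower, and 1447 had an unadjusted p under 0.05 (DESeq2 called 4). Mcam, a cell adhesion gene, stood at 30.1, 28.1 and 32.9 CPM at day 7 and 21, 25.1 and 20.8 CPM at day 11 after 2 Gy, and at 6.34 ± 1.95 and 18.4 ± 0.852 CPM (SD, n = 3) at 0 Gy. The difference between the courses was -1.96 on the log2 scale (SE 0.29, adjusted p = 0.0104, 0.618 without mTG11). The cyclin G1 gene Ccng1, a p53 target, stood at 207, 275 and 212 CPM and 190.2, 197 and 198 CPM after 2 Gy and at 104 ± 18.7 and 166 ± 21.5 CPM at 0 Gy, a difference of -0.91 (SE 0.15, adjusted p = 0.0275). Its adjusted p was 0.524, 0.169 and 0.291 without mTG11, mTG12 and mTG14. The call was also lost without the block, by library totals alone, and when only the 12 libraries at 0 and 2 Gy were fitted.

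Among the 24 p53 targets, Ccng1 was the only one that passed this test, and 21 (87.5%) had a lower course after 2 Gy than at 0 Gy, against 49.7% of all genes. The median difference was -0.55 against 0.0023 over all genes, and 13 (54.2%) were lower at an unadjusted p under 0.05 (3.5% of all genes). Mdm2 stood at 36.6 ± 7.09 CPM at day 7 and 62.5 ± 5.66 CPM at day 11 at 0 Gy, and at 66.4 ± 4.51 and 74.2 ± 5.73 CPM after 2 Gy. For Eda2r, a death receptor gene, the values were 2.61 ± 0.692 and 7.79 ± 1.89 CPM at 0 Gy and 13.5 ± 0.401 and 11.3 ± 1.73 CPM after 2 Gy (adjusted p of the difference 0.124). The median course of the mitotic list was -1.80 at 0 Gy and -1.77 after 2 Gy on the log2 scale of mean CPM plus 1, with a median difference of 0.029 and 0 members passing. Other lists also departed from the 0 Gy course, with 0 members passing. Of 13 mitochondrially encoded genes, 12 had a lower course after 2 Gy, 6 at an unadjusted p under 0.05. Of 22 multiciliated genes 21 did, 4 at that level (median -1.33). Of 18 fibroblast genes, 9 were higher and 1 lower at that level (median 1.66). In class I antigen presentation 5 of 15 were higher and 0 lower. Over all 21928 genes, 679 were higher and 768 lower.

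Against 4 Gy no gene passed in either direction (0% higher and 0% lower by edgeR), while 1404 had an unadjusted p under 0.05 and DESeq2 called 17. Without mTG12, edgeR called 35, of which 30 were lower after 2 Gy. All 30 mitotic genes and all 28 cholesterol genes had a lower course after 2 Gy than after 4 Gy (49.8% of all genes), with median differences of -0.85 and -0.54, and 25 and 20 of them were lower at an unadjusted p under 0.05 (3.59% of all genes). Top2a stood at 153 ± 20.8 CPM at day 7 and 82.2 ± 2.72 CPM at day 11 after 4 Gy.

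Against 7 Gy the courses differed in 598 genes, of which 122 (0.556%) moved higher and 476 (2.17%) lower after 2 Gy. Without mTG11, mTG12 or mTG14 the count was 222, 419 or 214. Of the mitotic genes 29 of 30 were lower (23 to 27 when 1 culture was left out), and of the replication genes 21 of 30 (10 to 13). Top2a fell after 2 Gy as given above and stood at 95.0 ± 6.11 CPM at day 7 and 109 ± 1.34 CPM at day 11 after 7 Gy, a difference of -1.91 (SE 0.18, adjusted p = 4.41e-07). For Mki67 the means after 7 Gy were 43.8 ± 4.24 and 75.6 ± 9.13 CPM, a difference of -2.65 (SE 0.29, adjusted p = 3.57e-06). The cholesterol list had 22 of 28 lower (15 to 18 with 1 culture left out), the glycolysis list 19 of 26 (7 without mTG11, 17 without mTG12 and 4 without mTG14) and the suprabasal list 10 of 24 (3, 8 and 4).

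Among genes with at least 10 CPM on average over the 24 libraries, the largest differences from 7 Gy on the negative side were those of Lce3e (-9.08), Lce3b (-7.60), Lce3f (-4.70), Rptn (-4.45) and the envelope protease gene Asprv1 (-4.26). Lce3e and Lce3b were at or close to 0 at day 11 after 2 Gy, so that their fitted values depend on the prior count and are no measure of size. Without mTG12 the calls of Lce3e, Lce3b, Lce3f and Rptn were lost (adjusted p between 0.0575 and 0.321), and that of Rptn also without mTG11 (0.101). Asprv1 stood at 36.8, 27.4 and 40.2 CPM and 0.448, 2.23 and 1.06 CPM after 2 Gy and at 14.1 ± 9.01 and 8.71 ± 4.46 CPM after 7 Gy (adjusted p = 4.71e-04).

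On the positive side of the same set stood Dcn (2.20), the matrix metalloprotease genes Mmp10 (2.14) and Mmp13 (1.85), the small nuclear RNA gene Rn7sk (1.99) and Ifit3 (1.79). Dcn, Mmp10, Mmp13 and Ifit3 lost their calls without mTG14 (adjusted p between 0.0578 and 0.227) and without the block (0.199 to 0.557), and Ifit3 also without mTG11 (0.0932). Rn7sk kept its call in each of these fits, at 89.3, 35.9 and 64.8 CPM and 203, 112 and 184 CPM after 2 Gy and 102 ± 26.1 and 68.7 ± 17.5 CPM after 7 Gy. Among the p53 targets 4 of 24 had a higher course after 2 Gy than after 7 Gy, namely Cdkn1a, Mdm2, Trp53inp1 and Aen, and 1 to 3 when 1 culture was left out (2 without the block). Mdm2 was at 121 ± 12.2 CPM at day 7 and 79.8 ± 4.95 CPM at day 11 after 7 Gy, a difference of 0.76 (SE 0.18, adjusted p = 0.0176). Of the interferon-stimulated genes 6 of 32 were higher, against 0, 12 and 1 without mTG11, mTG12 and mTG14 and 0 without the block.

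**Figure D4:**
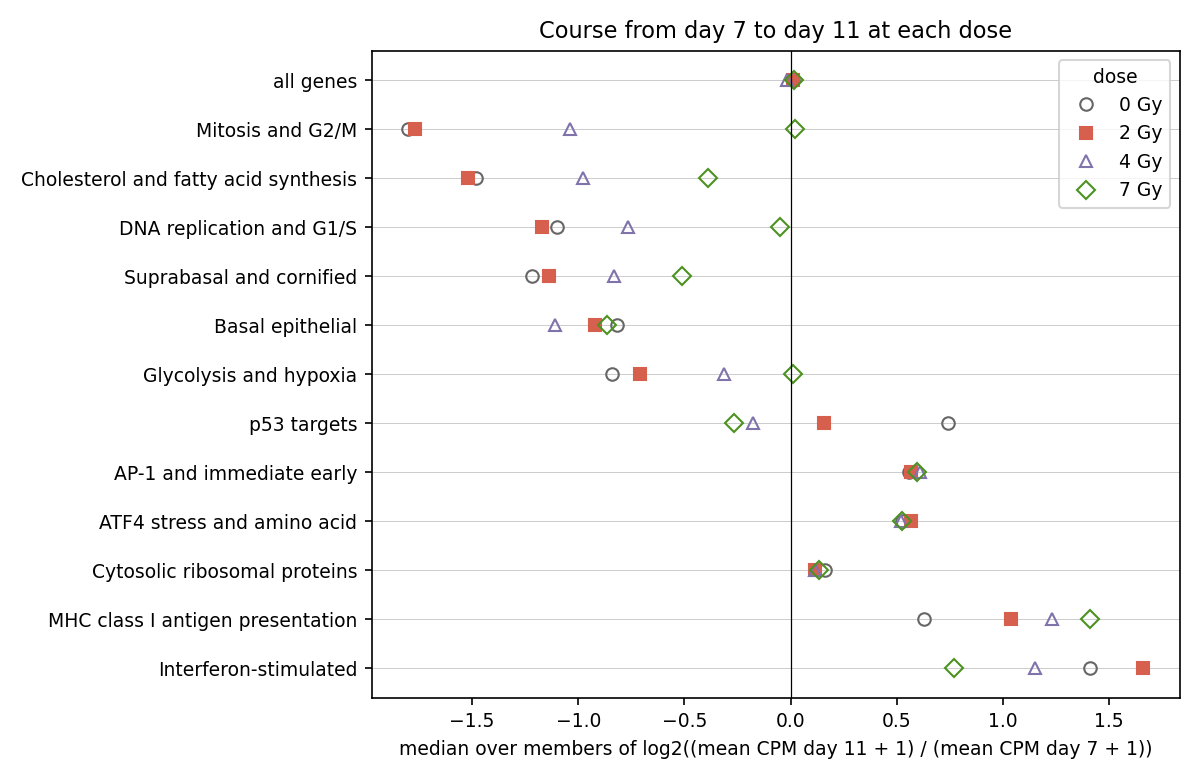
Median over the members of each list of log2((mean CPM at day 11 + 1)/(mean CPM at day 7 + 1)) at 0 Gy (circle), 2 Gy (red square), 4 Gy (triangle) and 7 Gy (diamond), for 12 lists, with all genes in the top row. For mitosis the medians are -1.80, -1.77, -1.04 and 0.022 in the order of dose, for p53 targets 0.74, 0.16, -0.18 and -0.27, and for all genes they lie between -0.019 and 0.015.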

How the data were processed

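Smart3SEQ libraries were made from 80 ng of RNA per sample, per the labels. The authors deposited estimated counts per gene symbol for 50559 genes, not normalized, and 56.5% of the nonzero values in the 6 libraries were whole numbers. The submitters' processing notes name STAR, edgeR and GRCm39. The counting tool, the annotation, the treatment of reads that match several genes, strand and molecular identifiers are not given in the sources used here. Genes that share reads may therefore be split between copies. Columns were placed by the day and dose in their names.

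Values were rounded and genes with at least 10 summed counts were fitted with edgeR 4.0.16 (R 4.3.3), TMM factors and the quasi-likelihood test. The culture entered as a block, and the 6-library fit left 2 residual degrees of freedom. P-values were adjusted by Benjamini-Hochberg over all genes tested, with a threshold of 0.05, and the SE is the log2 fold change divided by the root of F. CPM used library totals alone. Courses at 2 doses were compared by an interaction term over 24 libraries, and day 5 was compared in a fit of 9. Every adjusted p in the text is from edgeR unless another tool is named, and all tests were two-sided. The study states 3 animals, and each group held 3 cultures. With the culture as a block, p-values rest on how the differences between groups varied over these cultures. The spread of each gene was moderated by that of the other genes, with 10.2 prior degrees of freedom in the 6-library fit. Deviations from the group means correlated at 0.406, 0.335 and 0.302 between the days of mTG11, mTG12 and mTG14 (9537 genes), so the culture paired the samples.

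The members and the 34 gene lists were chosen with earlier results of these data known. Named genes were, per list, up to 6 members with the largest differences and its defining members. Further named genes were the 15 largest rises and falls (called, at least 10 CPM on average, no overlap), the 5 largest interactions in each direction (called, at least 10 CPM on average over the 24 libraries) and the 5 most abundant genes. Other list members are named from the same lists, chosen after their values were seen. The alternatives, 12 for the course, covered the block, DESeq2 1.42.0, scaling, filters, rounding, thinning and each culture left out. The code was tested on simulated data in which 200 genes changed by 1 or by 2 on the log2 scale. With the block, edgeR recovered 97% and 100% of them, and 7.62% and 6.1% of its calls were false. DESeq2 recovered 69.5% and 100%, with 0% of its calls false. Gene positions are from GENCODE on GRCm39, and promoter windows from RefSeq on GRCm38.p6. Values of some list members are not reported here.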

Additional observations from a re-analysis of the deposited data

Results flagged for a closer look

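The course from day 7 to day 11 after 2 Gy differed from the non-irradiated course in 2 genes, by edgeR's interaction test. The differences on the log2 scale were -1.96 for Mcam and -0.91 for Ccng1, so that the change from day 7 to day 11 was lower after 2 Gy. The mean levels were higher after 2 Gy than at 0 Gy on both days. For Mcam they were 30.3 and 22.3 CPM against 6.34 and 18.4 CPM, and for Ccng1 231.5 and 195.2 CPM against 104.4 and 165.5 CPM. Mcam did not pass without mTG11 or without the culture block, and Ccng1 did not pass when any 1 culture or the block was left out. Ccng1 also did not pass with scaling by library totals alone, or when only the 12 libraries at 0 and 2 Gy were fitted.

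The same test against the course after 7 Gy found 598 genes. Among genes with at least 10 CPM on average over the 24 libraries, the largest positive differences on the log2 scale were 2.20 for Dcn, 2.14 for Mmp10, 1.99 for Rn7sk, 1.85 for Mmp13 and 1.79 for Ifit3. The largest negative ones were -9.08 for Lce3e, -7.60 for Lce3b, -4.70 for Lce3f, -4.45 for Rptn and -4.26 for Asprv1. For Lce3e and Lce3b the fitted values rest on day 11 counts at or close to 0 and give no bound.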

How the results depend on the processing

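Of 375 named genes called between day 7 and day 11 after 2 Gy, 274 were called in the same direction under every alternative, 101 lost the call under at least 1 and 0 turned direction. Of 255 not called, 189 stayed so, 63 gained a call in the same direction and 3 were called in the opposite direction. These 3 were ND5, from -0.49 to 0.46, ATP8, from -0.71 to 0.72, and Muc5b, from -1.17 to 0.71, over the fits with 1 culture left out. A change of sign without a call was not counted, as for Bax, which ran from -0.21 to 0.13 over the alternatives. Without the culture block the course gave 2903 calls in place of 3726, and DESeq2 gave 1776. Against the 0 Gy course, the 2 calls became 0 without the block, 4 by DESeq2, 1 by library totals alone, 164 with no filter on low counts and 0 to 4 with 1 culture left out. Against 4 Gy, 0 calls became 17 by DESeq2, 189 with no filter and 0 to 35 with 1 culture left out. Against 7 Gy, 598 became 353 without the block, 1046 with no filter and 214 to 419 with 1 culture left out. Day 7 against day 5 gave 3337 calls, 1960 by DESeq2 and 1363 to 3500 with 1 culture left out. The causes of these shifts were not tested. In these libraries 3 counts are worth 0.653 to 1.19 CPM, and values under that level rest on fewer than 3 counts.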
